A study of Mus musculus with 9 samples.

Results

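Distal windows are the measured stretches of mouse chromatin whose centre lies more than 10 kb from the start of the gene to which they were assigned. They were taken from the authors' table of ChIP-seq windows, nearly all of 1 fixed width, by a rule on position alone. The start of the assigned gene was its lower coordinate on the plus strand and its higher coordinate on the minus strand. Of 17641 windows, 3290 were distal and 14351 lay at 10 kb or nearer. The 3290 windows were assigned to 2702 genes.

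The libraries came from chromatin immunoprecipitation with an antibody sold against trimethylation of lysine 9 on histone H3 (H3K9me3). Textbook accounts place H3K9me3 in compact, silent chromatin, over repeats, pericentromeric DNA and zinc finger gene clusters, where HP1 proteins bind it and spread it. Sequence far from gene starts holds enhancers and other regulatory elements of tissue-specific genes, starts of unannotated or alternative transcripts, and repeats, and in islet cells many elements that control hormone genes act from such positions. Active gene starts carry other histone marks and are usually rich in CG dinucleotides.

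Groups were read from the sample labels. AlphaTC1, a mouse line that makes glucagon, was studied 5 days after transduction with an empty vector (2 libraries, called control in the titles) and 5 days after transduction with shRNA against Smndc1 (2 libraries). BetaTC3, a mouse line that makes insulin, received no treatment (2 libraries). Each group also had 1 input library, which entered through the authors' peak calling. Both lines are established lines from islet tumours of transgenic mice, so cell type cannot be told apart from line, and betaTC3 also differs from alphaTC1 in carrying no vector. Whether the libraries of a group are separate cultures is not stated in the labels. The p-values therefore reflect only how much these libraries vary, which may be technical. RNA was not measured in these files, and the extent of the knockdown was not checked here.

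The libraries held 4530066 to 9924487 reads in windows, with a median of 24 to 45 reads in a distal window and 263 to 545 in the others. The values are the authors' normalised signal, in which every library is a whole number of reads multiplied by 1 factor, and they are called scaled reads here. Windows at the starts of cell type genes followed the lines: Gcg, the glucagon gene, held 340 to 421 scaled reads in the 4 alphaTC1 libraries and 0 in both betaTC3 libraries, while Ins1, an insulin gene, held at most 1.32 in alphaTC1 and 354 and 314 in betaTC3. Sox9, a duct gene, held 465 to 601 in alphaTC1 and 3.99 and 4.76 in betaTC3, and Sst, the somatostatin gene, at most 2.65 in alphaTC1 and 107 and 93.3 in betaTC3. Since the windows sit mainly at gene starts and are high at the hormone gene that each line is known to express, the distribution goes against what is known of H3K9me3, and the libraries are referred to as labelled H3K9me3 throughout. The reason was not tested.

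The distance from the assigned gene start had a median of 27301 bp, reaching 481880 bp, and 809 of the distal windows (24.6%) lay beyond 50 kb. Upstream of the assigned gene lay 1532 windows (46.6%), 1120 (34.0%) lay downstream of it and 631 (19.2%) inside it. The assigned gene was protein-coding for 1308 windows (39.8%), a processed pseudogene for 573 (17.4%), a lincRNA for 400 (12.2%), and antisense for 238 (7.23%). Distance from an assigned gene is not distance from every gene start, and 1910 windows (58.1%) had their centre within the body of a RefSeq gene. Of the 3166 distal windows on chromosomes for which RefSeq starts were at hand, 425 (13.4%) lay within 1 kb of a RefSeq start, against 9585 of 13956 other windows (68.7%). In 293 of the 425 windows that start belonged to a gene other than the assigned one, and in 132 it was another start of the assigned gene. A further 314 lay 1 to 10 kb from a RefSeq start and 2427 more than 10 kb from every one.

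Sequences of 5 RefSeq promoters (GRCm38.p6, 250 bases before to 50 after the start) next to distal windows show what such a start looks like at windows of different behaviour. Nfatc2 (chr2:168590316-168590615, minus strand) stands next to a window found in betaTC3. Zfp217 (chr2:170131171-170131470, minus strand), Ppargc1a (chr5:51567676-51567975, minus strand) and Prlr (chr15:10223656-10223955, plus strand) stand next to windows found in alphaTC1. Abl1 (chr2:31759923-31760222, plus strand) stands next to a window of like level in all libraries. Capitals mark CG dinucleotides, and each sequence runs 5′ to 3′ on the strand of its gene.
Nfatc2: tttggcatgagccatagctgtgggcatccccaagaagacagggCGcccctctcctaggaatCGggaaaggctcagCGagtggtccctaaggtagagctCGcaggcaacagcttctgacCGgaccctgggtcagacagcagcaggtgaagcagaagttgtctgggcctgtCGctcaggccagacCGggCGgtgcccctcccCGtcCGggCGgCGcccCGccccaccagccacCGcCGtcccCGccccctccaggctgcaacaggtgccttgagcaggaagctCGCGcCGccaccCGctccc
Zfp217: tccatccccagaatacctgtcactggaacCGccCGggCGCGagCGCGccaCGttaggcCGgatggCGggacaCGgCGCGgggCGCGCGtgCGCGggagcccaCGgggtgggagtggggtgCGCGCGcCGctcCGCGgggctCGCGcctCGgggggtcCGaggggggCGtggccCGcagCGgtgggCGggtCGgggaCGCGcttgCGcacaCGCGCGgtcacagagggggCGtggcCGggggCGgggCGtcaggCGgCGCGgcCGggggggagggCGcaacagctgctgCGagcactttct
Ppargc1a: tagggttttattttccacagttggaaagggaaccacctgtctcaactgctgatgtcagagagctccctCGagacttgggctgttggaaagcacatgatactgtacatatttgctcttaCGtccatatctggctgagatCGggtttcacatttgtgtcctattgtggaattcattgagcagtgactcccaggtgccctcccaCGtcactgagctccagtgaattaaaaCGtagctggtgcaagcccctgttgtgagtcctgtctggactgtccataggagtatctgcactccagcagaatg
Prlr: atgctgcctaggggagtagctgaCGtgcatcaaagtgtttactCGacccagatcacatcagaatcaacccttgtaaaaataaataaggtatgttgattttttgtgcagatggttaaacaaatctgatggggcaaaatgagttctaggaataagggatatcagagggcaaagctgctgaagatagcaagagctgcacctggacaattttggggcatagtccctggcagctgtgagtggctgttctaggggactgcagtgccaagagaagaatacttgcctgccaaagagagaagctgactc
Abl1: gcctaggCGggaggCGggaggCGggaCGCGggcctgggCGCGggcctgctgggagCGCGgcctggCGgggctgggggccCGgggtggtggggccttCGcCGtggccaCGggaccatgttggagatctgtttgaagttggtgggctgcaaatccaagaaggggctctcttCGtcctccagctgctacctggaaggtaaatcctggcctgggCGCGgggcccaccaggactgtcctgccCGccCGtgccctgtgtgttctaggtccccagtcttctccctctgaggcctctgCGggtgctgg

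Zfp217 held 49 CG dinucleotides in 300 bases, Nfatc2 and Abl1 20 each, Ppargc1a 5 and Prlr 2. The promoters of Ppargc1a and Prlr thus hold fewer CG than that of Zfp217, although the windows beside all 3 were high in alphaTC1 and low in betaTC3. Those windows do not overlap the printed bases. The letters GGGCGG, searched on both strands, occurred in the promoters of Nfatc2, Zfp217 and Abl1 and in neither of the other pair. The letters CCAAT were in none of the 5 by the same search. The TATA box letters TATAAA were likewise not in these windows of sequence, nor was the homeobox core TAATTA. Across all 32851 RefSeq promoters of this length the first motif was present in 35.7%, the CCAAT box in 37.4%, the TATA box in 13.6% and the homeobox core in 5.29%. No motif contains another, and a match is a description of letters only.

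Distal windows held less signal than windows near gene starts in every library. The median distal window held 34.4 and 36.4 scaled reads in empty-vector cells, 33.4 and 33.5 after knockdown, and 35.9 and 38.1 in betaTC3. Windows at 10 kb or nearer held medians of 459 and 475, 314 and 387, and 435 and 391 in the same order. The 6 libraries do not overlap between the window classes, and the median of the nearer windows was 9.39 to 13.3 times that of the distal ones. On the scale of log2(scaled reads + 1), the distal median was lower by a mean of -3.49 ± 0.198 (SD, n = 6 libraries, exact sign-flip permutation test, two-sided p = 0.03125, the smallest that 6 libraries allow, 0.0547 after Benjamini-Hochberg adjustment over 7 such comparisons). Distal windows took 4.07% and 4.15% of the reads in windows in empty-vector cells, 4.67% and 4.27% after knockdown, and 4.19% and 4.54% in betaTC3. The betaTC3 share exceeded that of the 4 alphaTC1 libraries by 0.0780 percentage points, less than the spread within groups (exact permutation test, two-sided p = 0.867, where 0.0667 is the smallest possible).

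**Figure D1:**
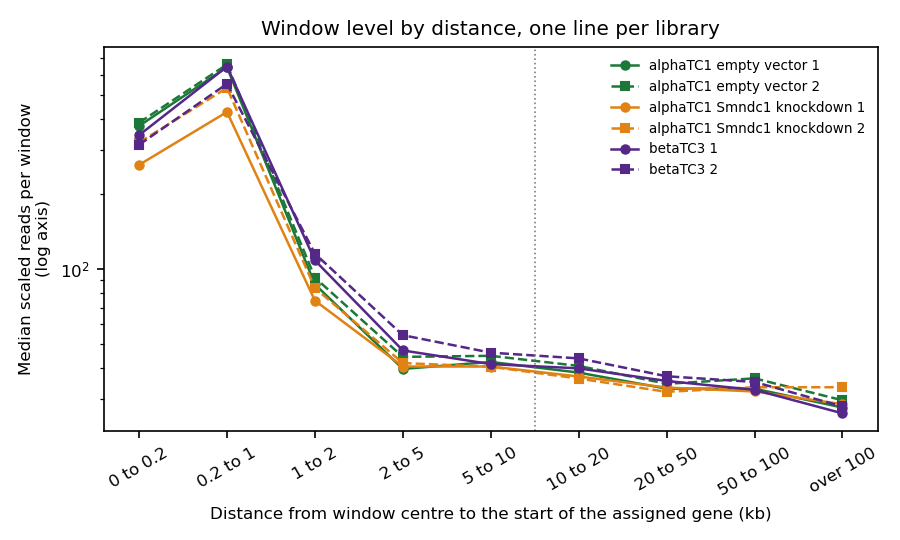
Median scaled reads per window (log axis) by distance in kb from the window centre to the start of the assigned gene, 1 line per library; the dotted line marks 10 kb. Medians fall to about the distal level already at 2 to 5 kb (39.7 to 54.2 scaled reads) and reach 26.4 to 33.5 beyond 100 kb.

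Most of the fall occurred before the 10 kb limit. Medians were 426 to 661 scaled reads at 0.2 to 1 kb, 39.7 to 54.2 at 2 to 5 kb, 36.3 to 43.8 at 10 to 20 kb and 26.4 to 33.5 beyond 100 kb. Just inside the limit, windows assigned to Gm5532, Adgrg1 and Lrrc75b (10002, 10004 and 10020 bp) held 10.5 to 38.2, 7.99 to 31.8 and 2.396 to 38.2 scaled reads over the libraries. Just outside it, those of Fosb, Gm31172 and Gm38109 (9996, 9987 and 9981 bp) held 59.0 to 104, 5.59 to 49.5 and 0 to 38.2.

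Distal windows within 1 kb of a RefSeq start held more signal than the other distal windows in each library. The 425 windows near a RefSeq start had medians of 177 and 193 scaled reads in empty-vector cells, 139 and 168 after knockdown and 125 and 131 in betaTC3. Those 1 to 10 kb from a start had medians of 29.9 to 36.4 and those more than 10 kb from every start 29.4 to 35.2, so these last classes overlapped. On the log2 scale, windows near a RefSeq start exceeded the other distal windows by 2.23 ± 0.288 (SD, n = 6 libraries, range 1.87 to 2.52, exact sign-flip permutation test, p = 0.03125, the smallest possible, 0.0547 adjusted). Of the 425, 150 (35.3%) had a mean above 300 scaled reads, against 94 of the 2427 far from every start (3.87%). Among the 100 distal windows of highest mean, 66 lay within 1 kb of a RefSeq start and 26 more than 10 kb from all of them. For 4 others no RefSeq starts were at hand.

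**Figure D2:**
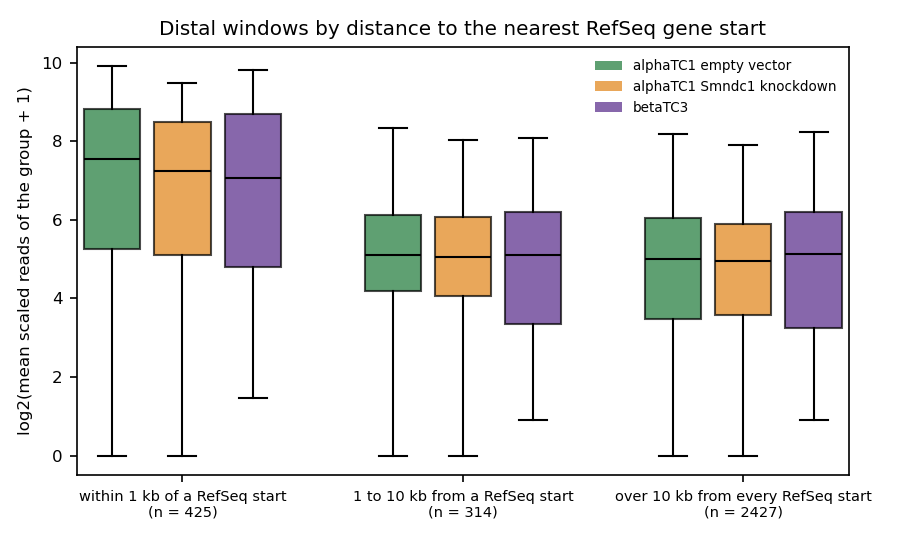
Distribution over distal windows of log2(mean scaled reads of the group + 1), by distance to the nearest RefSeq gene start and by group; boxes give quartiles, lines the median, whiskers the 5th and 95th percentiles over windows. Windows within 1 kb of a RefSeq start (n = 425) stand higher in each group, and the classes at 1 to 10 kb (n = 314) and beyond (n = 2427) are alike.

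The promoters nearest to distal windows were intermediate in CG content. Promoters within 1 kb of a distal window (409) had a median of 13 CG dinucleotides in 300 bases, against 7 in all RefSeq promoters and 22 in the 9344 nearest to other windows. GGGCGG was present in 50.9%, 35.7% and 69.5% of them, and the TATA box letters in 9.05%, 13.6% and 5.94%. Beside distal windows above 300 scaled reads the median was 22 CG (150 promoters), and beside those under 30 scaled reads it was 7 (74 promoters). These are descriptions over promoters, which are not replicates.

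Called peaks, which the authors made for each library against the input of its group, covered 60.5% and 68.0% of distal windows in empty-vector cells, 69.8% and 67.8% after knockdown, and 57.9% and 59.6% in betaTC3. The nearer windows were covered at 85.8% to 88.6%. The distal share was lower by -23.6 ± 5.21 percentage points (SD, n = 6 libraries, exact sign-flip permutation test, p = 0.03125, the smallest possible, 0.0547 adjusted). Peaks over distal windows were narrower, with medians of 564 to 666 bp against 1423 to 1672 bp, and their median fold over background, the authors' own value, was 7.77 to 10.3 against 29.0 to 46.7. Within 1 kb of a RefSeq start 73.9% to 84.5% of distal windows were under a peak.

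Peaks over distal windows were divided between the lines. A peak in both libraries of all 3 groups covered 954 distal windows (29.0%), against 75.9% of the nearer windows. Peaks in both groups of alphaTC1 and not in both betaTC3 libraries covered 802 (24.4%, against 7.83%), and those of betaTC3 alone 808 (24.6%, against 10.4%). Peaks in both knockdown libraries alone covered 286 (8.69%, against 2.05% of nearer windows), and in both empty-vector libraries alone 144 (4.38%, against 1.10%). Here alone still allows a peak in 1 library of another group. For 213 distal windows (6.47%, against 1.77%) no group had a peak in both libraries. These shares are counts of windows and were not tested.

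Of the 6 distal windows of highest mean, 4 lay within 1 kb of a RefSeq start. For the window assigned to Wdr7, on chromosome 18, no RefSeq starts were at hand. The highest was inside Lncppara, a noncoding RNA next to the nuclear receptor gene Ppara (chr15:85671610-85672010), 31963 bp from any RefSeq start, with 1713 and 1798 scaled reads in empty-vector cells, 1229 and 1818 after knockdown, and 2764 and 2084 in betaTC3. BetaTC3 lay above all alphaTC1 libraries there, by 0.45 ± 0.25 in log2 over the empty vector (SE, limma, adjusted p = 0.179). The window assigned to Gm42528 was 192 bp from the RefSeq start of Hs3st1, a heparan sulfate sulfotransferase gene (chr5:39644239-39644639), and held 1586 and 1734, 1173 and 1405, and 889 and 915 scaled reads. It was lower in betaTC3 by -0.88 ± 0.16 (adjusted p = 0.00357 by limma) with no overlap between lines.

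The windows assigned to Asb8, Mir6956 and Gm25805 lay 294, 234 and 435 bp from RefSeq starts of Asb8, of Triobp, which encodes an actin-binding protein, and of Usp7, a deubiquitinase gene. They held 908 to 1554, 798 to 1521 and 939 to 1440 scaled reads, and none differed between betaTC3 and the empty vector by limma (adjusted p = 0.325, 0.622 and 0.2003). The window assigned to Wdr7 held 891 to 1657 and lies in the body of Txnl1, a thioredoxin-like gene. It was likewise not called (adjusted p = 0.0536 by limma), although both betaTC3 libraries, at 1657 and 1627, exceeded every alphaTC1 library.

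BetaTC3 and alphaTC1 differed at most distal windows. Between betaTC3 and the empty vector, limma on log2(scaled reads + 1), with Benjamini-Hochberg adjustment over all 17641 windows and a threshold of 0.05, called 2462 distal windows (74.8%), against 55.2% of all windows. Of these, 1075 were higher in betaTC3 (32.7%, against 22.1% of all windows) and 1387 lower (42.2%, against 33.2%). The median log2 change of distal windows was -0.32, against -0.12 in the nearer windows and -0.13 in all. With libraries centred on their medians 1184 distal windows were higher (background 34.3%) and 1269 lower (background 31.9%). Windows are not replicates of a line.

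**Figure D3:**
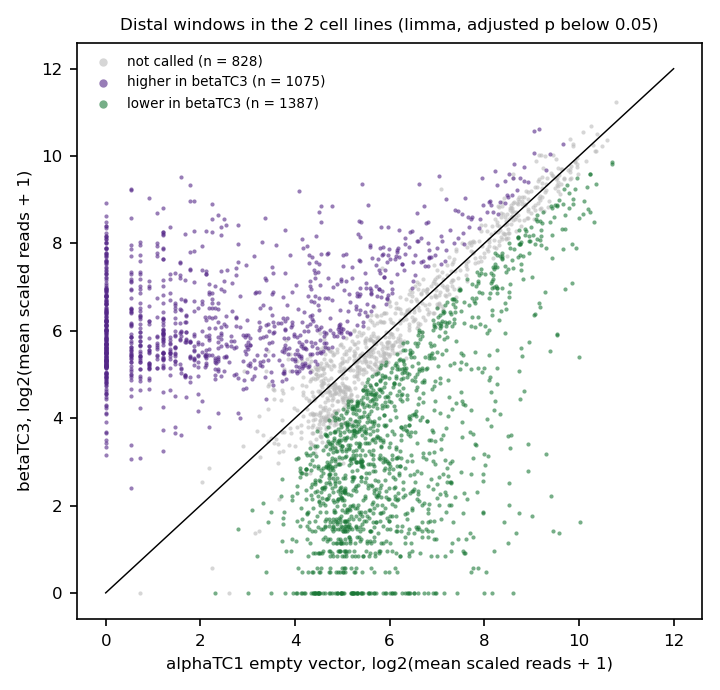
Each point is a distal window, with log2(mean scaled reads + 1) of the empty-vector alphaTC1 libraries on the horizontal and of the betaTC3 libraries on the vertical axis, coloured by the limma call; the line marks equal levels. The 1075 windows higher in betaTC3 and the 1387 lower include many with a value at or near 0 in the other line, and called windows thin out toward the highest levels.

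Below 300 scaled reads, the shares called at like level in distal and nearer windows were closer to each other, while their directions could differ. At a mean of 10 to 30 scaled reads 80.7% of distal and 79.1% of nearer windows were called, at 30 to 100 it was 74.5% and 73.9%, and at 100 to 300 it was 72.5% and 66.8%. At 10 to 30 scaled reads, 38.1% of distal windows were higher and 42.7% lower in betaTC3, with a median log2 change of -0.44, and 47.9% of nearer windows were higher and 31.2% lower, with a median of 0.81. At 300 to 1000 the shares called were 48.1% of 258 distal and 35.8% of 6830 nearer windows, and above 1000 they were 2 of 11 and 32.9%. Windows of 10 to 30 scaled reads made up 41.0% of the distal and 11.4% of the nearer class, and those of 30 to 100 made up 35.4% and 13.8%. The sources used here do not say how windows entered the authors' table. A window, weak or strong, that entered only through the line where it is high had to differ.

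Among windows higher in betaTC3, the 8 of largest change had at most 1 read in either empty-vector library. At all 8 a called peak was present in both betaTC3 libraries and in no alphaTC1 library. If windows entered the authors' table through peaks, these 8 entered through betaTC3. Their folds and p-values then belong to windows that had to differ and were ranked by that same change. A window in the body of Tjp1, a tight junction scaffold gene, assigned to Gm44792 (chr7:65527281-65527681), held 0 in all 4 alphaTC1 libraries and 588 and 381 scaled reads in betaTC3, at least 146-fold higher (adjusted p = 6.50e-06 by limma). Inside Nfatc2, a calcium-regulated transcription factor gene, the window 178 bp from a RefSeq start (chr2:168589987-168590387) held 0 in all alphaTC1 libraries and 308 and 344 in betaTC3, at least 98.4-fold higher (adjusted p = 6.30e-06 by limma). Its promoter is among the sequences printed above, and the window overlaps it by 72 bases.

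Of the other 6 windows, those assigned to Gm22818 and Gm27506 lay in no RefSeq gene body. In Rai1, a chromatin reader gene, the window assigned to 4930412M03Rik held 398 and 388 scaled reads in betaTC3 and 0 in alphaTC1 (at least 119-fold). In Armc9, which encodes a ciliary protein, the window assigned to Gm16341 held 331 and 344 and 0 (at least 102-fold). In Tenm3, a teneurin adhesion gene, the window assigned to Gm45772 held 676 and 529 in betaTC3, with 1 read over the empty-vector libraries, a ratio of 1146 (95% counting interval 205 to 45311). The window assigned to Gm22818 held 562 and 640.5, a ratio of 1125 (202 to 44472) on 1 read. Those of Gm27506 and Gm47283 were at least 108-fold and 101-fold higher. That of Gm47283 lies on chromosome Y, in a family with near-identical copies, so the placing of its reads is uncertain. All 8 were called by limma, and in each the lines did not overlap.

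Of the 8 windows with the largest change among those lower in betaTC3, 5 lay within 1 kb of a RefSeq start. All 8 were under a called peak in all 4 alphaTC1 libraries, and only that assigned to Ykt6 also in betaTC3. If windows entered the authors' table through peaks, the others entered through alphaTC1. Their folds and p-values then belong to windows that had to differ, and all 8 were ranked by that same change. Zfp217 encodes a zinc finger repressor, and its window (chr2:170130499-170130899), 521 bp from a RefSeq start, held 1092 and 985 scaled reads in empty-vector cells, 645 and 801 after knockdown, and 3.19 and 0.952 in betaTC3. The change was -8.50 ± 0.35 in log2 (SE, adjusted p = 8.46e-06 by limma). Ppargc1a encodes the coactivator PGC-1 alpha of mitochondrial genes, and its window (chr5:51567267-51567667), 258 bp from an upstream RefSeq start, held 473 and 558, 420 and 425, and 0 and 4.76. That change was -7.74 ± 0.73 (adjusted p = 0.000167 by limma). Both windows were high in all 4 alphaTC1 libraries and near 0 in betaTC3.

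A window 217 bp from a start of Celf2, an RNA-binding splicing regulator gene, and assigned to Gm13389 held 404 and 414 scaled reads in empty-vector cells and 3.19 and 0 in betaTC3 (-7.64 ± 0.63 in log2). In Camk2b, a calcium-calmodulin kinase gene, the window assigned to Ykt6 held 360 and 413 and then 0 and 0 in betaTC3, which is at least 147-fold lower. Called peaks of both betaTC3 libraries nonetheless reach into that window, over 86 and 84 of its bases, and 3 of the 95 distal windows at 0 in both betaTC3 libraries were under a peak in both. Windows in Arhgef15, a guanine nucleotide exchange factor gene, and at Gm39391, assigned to Arl4d, were at least 108-fold and 97.1-fold lower. Those assigned to Bcas1os2 and to Gm45537, the latter in the body of Stox2, changed by -8.53 and -8.08 in log2. Each of these 8 windows was called by limma with no overlap between the lines.

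Distal windows assigned to islet genes did not simply follow the line in which the gene is used. Beside 74.8% of all distal windows called, 32.7% higher and 42.2% lower, the counts for these genes were small. Of 5 windows of beta cell genes 2 were higher and 2 lower in betaTC3, and of 6 of pan-endocrine genes 4 were lower and none higher by limma. For pancreas lists of acinar, duct and other islet cells 1 was higher and 1 lower. The medians of log2 change were -0.64, -0.99 and -0.45, beside -0.32 over all distal windows. The lists had been chosen with results of these data known. Some of these windows, among them those of Mnx1, Isl1 and Prlr, were under peaks of 1 line only. If they entered the authors' table through those peaks, they had to differ.

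Etv1, the gene of an ETS transcription factor, is on the alpha cell list and had a window inside it with 18.5 and 35.5 scaled reads in empty-vector cells, 22.7 and 18.2 after knockdown, and 0 and 3.81 in betaTC3 (-3.61 ± 0.73 in log2, adjusted p = 0.00564 by limma). It was lower in betaTC3 with no overlap, and the call was lost without empty-vector library 2 (-3.16).

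Mnx1 encodes a homeobox factor of beta cells, and its window 10167 bp downstream of the start (chr5:29468103-29468503) was low in alphaTC1 and high in betaTC3. It held 6.62 and 5.33 scaled reads in empty-vector cells, 7.17 and 9.78 after knockdown, and 249.96 and 258 in betaTC3 (5.20 ± 0.27 in log2, adjusted p = 1.48e-05 by limma). Robo1, an axon guidance receptor gene, held a pair of windows inside it that went opposite ways. At 115667 bp (chr16:72778616-72779016) values were 23.8 and 27.5, 17.9 and 25.2, and 0.799 and 1.90 (ratio of pooled reads 0.05003, 95% counting interval 0.00997 to 0.155, adjusted p = 0.000217 by limma). At 148263 bp (chr16:72811212-72811612) they were 1.32 and 1.78, 0 and 0, and 118 and 112 (ratio 72.4, interval 24.5 to 354, adjusted p = 1.29e-05 by limma).

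Prlr, the prolactin receptor gene, belongs to the beta cell list, yet its window (chr15:10224100-10224500), 394 bp from an internal RefSeq start with the CG-poor promoter printed above, was high in alphaTC1. It held 230.4 and 276 scaled reads in empty-vector cells, 147 and 176 after knockdown, and 9.58 and 6.66 in betaTC3 (-4.81 ± 0.25 in log2, adjusted p = 1.40e-05 by limma). The window 16525 bp from Mafa, a beta cell factor gene, held 51.6 and 49.7, 44.2 and 37.7, and 27.1 and 38.1 and was not called (-0.64 ± 0.26 in log2, adjusted p = 0.0759 by limma). It was called with a pseudocount of 10 (-0.52), without the trend (-0.64), by edgeR with the authors' scaling (-0.64) and without betaTC3 library 2 (-0.88). It did not share the pattern of the Mafa start, where alphaTC1 held at most 11.9 and betaTC3 1726 and 1269.

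Foxa2 and Isl1 encode transcription factors that most islet endocrine cells use. A window 16198 bp downstream of the Foxa2 start (chr2:148030571-148030971), 1217 bp from the start of the noncoding gene 9030622O22Rik, held 140.3 and 121 scaled reads in empty-vector cells, 142 and 164 after knockdown, and 3.19 and 2.85 in betaTC3 (-5.03 ± 0.23 in log2, adjusted p = 1.00e-05 by limma). At 23570 bp a second window held 53.0 and 50.6, 56.1 and 44.7, and 24.8 and 28.5 (-0.94 ± 0.24, adjusted p = 0.0146 by limma). This second call was lost with libraries centred on their medians (-0.75), with DESeq2 (-0.73), without either empty-vector library (-0.90 and -0.97) and without betaTC3 library 1 (-0.84).

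Isl1 had a window 15619 bp downstream (chr13:116293870-116294270) with 96.6 and 87.9, 123 and 129, and 3.99 and 5.71 scaled reads (-4.01 ± 0.25 in log2, adjusted p = 2.81e-05 by limma). Upstream of Chga, the chromogranin A gene, windows at 22097 and 33162 bp were not called (adjusted p = 0.437 and 0.988 by limma). In the nearer window betaTC3 held 49.5 and 41.9, above all alphaTC1 libraries at 23.8 to 41.0. The farther window held 13.2 to 23.1 over all libraries. The window 22229 bp from Neurog3, the gene of an endocrine progenitor factor, lay 107 bp from the start of Fam241b and held 406 and 426, 217 and 267, and 245 and 165 (-1.05 ± 0.22 in log2, adjusted p = 0.00621 by limma, not called without empty-vector library 2 at -1.01).

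Of the acinar genes, Amy2a5, an amylase gene, had a distal window with 3.58 to 12.6 scaled reads in alphaTC1 and 57.5 and 54.2 in betaTC3 (2.82 ± 0.54 in log2, adjusted p = 0.00439 by limma). Rbpjl, an acinar transcription factor gene, had one in the body of Matn4 with 133 to 162 in alphaTC1 and 5.59 and 15.2 in betaTC3 (-3.72 ± 0.42, adjusted p = 0.000376 by limma). Neither range overlapped, and the Amy2a5 call was lost without either betaTC3 library (2.78 and 2.86).

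**Figure D4:**
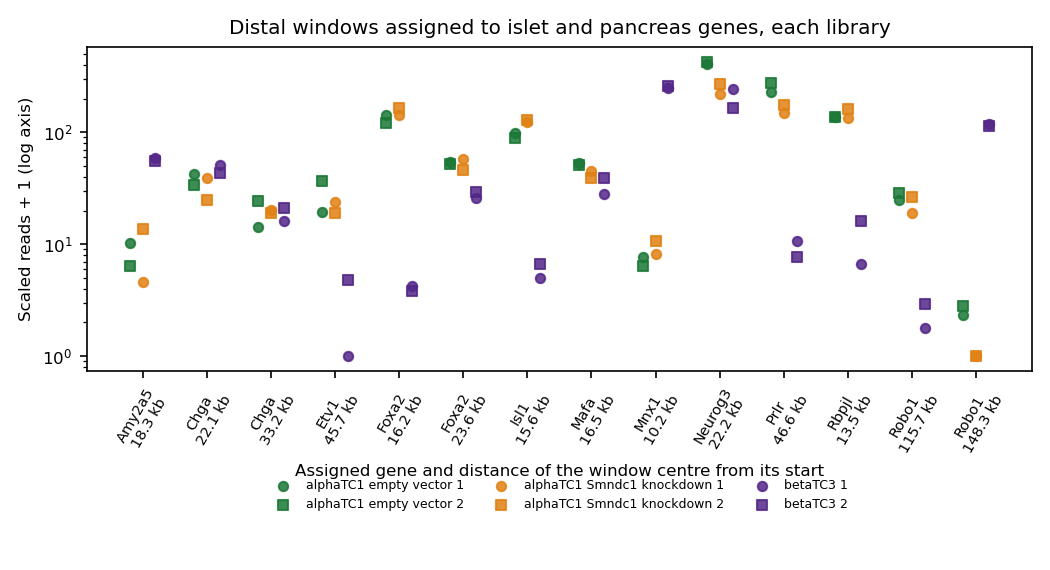
Scaled reads + 1 (log axis) of 14 distal windows assigned to islet and pancreas genes, with 1 point per library; labels give the gene and the distance in kb from its start. The Mnx1 window and the farther Robo1 window are high in betaTC3 only, while the nearer Foxa2, the Isl1, Prlr and Rbpjl windows are high in all 4 alphaTC1 libraries.

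Genes of axon guidance and synaptic adhesion had 12 distal windows, 3 higher and 8 lower in betaTC3 by limma, with a median log2 change of -1.76. Over all distal windows 32.7% were higher and 42.2% lower, with a median of -0.32, and the counts of the lists that follow stand beside these shares. Ntn1, which encodes the guidance cue netrin, had a strong one inside the gene at 1084 and 969 scaled reads in empty-vector cells, 628 and 744 after knockdown, and 39.9 and 41.9 in betaTC3 (-4.61 ± 0.14 in log2, adjusted p = 6.30e-06 by limma). Efna5, an ephrin gene, held 74.1 and 71.9, 53.8 and 64.3, and 1.60 and 0 at 80504 bp (ratio 0.0119, 95% counting interval 0.00143 to 0.0439). Efna2, another ephrin gene, went the opposite way at 2.65 and 5.33 in empty-vector cells and 84.6 and 97.1 in betaTC3 (4.25 ± 0.35 in log2).

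All 4 windows of classical and type II cadherins were called, 1 higher and 3 lower, where 74.8% of all distal windows were called. Cdh22 held 38.4 and 39.9 scaled reads in empty-vector cells and 1.60 and 0 in betaTC3, whereas Cdh7 held 1.32 and 3.55 against 37.5 and 44.7. Both protocadherin windows were higher in betaTC3, and that of Pcdh9 was at 0 in all alphaTC1 libraries and at 25.6 and 19.98 in betaTC3 (at least 6.86-fold). Of 10 windows of potassium channel genes 3 were higher (30%) and 5 lower (50%). Kcnt1, a sodium-activated potassium channel gene, held 0 and 2.66 in empty-vector cells and 355 and 255 in betaTC3 (ratio 194, 95% counting interval 66.1 to 943), and Kcnk3, an acid-sensitive channel gene, 99.3 and 120 against 14.4 and 14.3.

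Solute carriers had 25 distal windows, 11 higher (44%) and 10 lower (40%), against 32.7% and 42.2% of all distal windows. Slc6a19, a neutral amino acid transporter gene, was at 0 in alphaTC1 and at 49.5 and 75.2 scaled reads in betaTC3 (at least 18.8-fold), and Slc24a3, a sodium-calcium exchanger gene, at 126 and 112 in empty-vector cells and 2.396 and 0.952 in betaTC3. Homeobox, Sox, Fox and Tbx genes had 12, with 3 higher and 3 lower (25% each). Pou3f2, a neural POU factor gene, held 21.2 and 24.0 against 232 and 200 at 10829 bp (3.20 ± 0.22 in log2, adjusted p = 4.63e-05 by limma). Nkx6-3, a homeobox gene, held 35.7 and 40.8 against 0.799 and 2.85.

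Zinc finger genes, classical sites of H3K9me3, had 22 distal windows beside 354 nearer ones, and 5 were higher and 11 lower in betaTC3. The 72.7% called is near the 74.8% of all distal windows. Olfactory receptors had 13 distal windows beside 13 nearer ones, with 7 higher (53.8%, against 32.7% of all distal windows) and 2 lower (15.4%, against 42.2%) and a median log2 change of 1.08. Vomeronasal receptors had 21 beside 8, with 9 higher (42.9%) and 2 lower (9.52%) and a median of 0.69. Olfr368 held 3.97 and 0 scaled reads in empty-vector cells and 196 and 175 in betaTC3, and Vmn2r96 30.5 and 40.8 against 179 and 170. Receptor genes of these families have near-identical copies, and how reads with several matches were placed is not given, so the position of such windows is uncertain.

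Some strong distal windows varied little across the libraries. The 5 most even among those with a mean above 500 were those assigned to Gm49512 (at the start of Tnrc6b, a microRNA silencing gene, 542 to 679 scaled reads), 9330162B11Rik (at Esrrg, a nuclear receptor gene, 473 to 573), Trmt9b, Rap1gap2 (a Rap GTPase activator gene, 737 to 1037) and Qrfp. The last is 18 bp from the start of Abl1, the tyrosine kinase gene whose promoter is printed above, and held 756 and 749, 551 and 644, and 681 and 595. That of Trmt9b lies in the body of Dlc1, a GTPase activator gene, 410823 bp from the nearest RefSeq start, and held 610 to 848. These windows were chosen for being even, so no test is given for them.

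Against the knockdown libraries, betaTC3 differed at 2460 distal windows by limma (74.8%, against 60.6% of all windows). Of these 1158 were higher (35.2%, against 36.6%) and 1302 lower (39.6%, against 24.0% of all windows). With libraries centred on their medians 1082 were higher (background 35.9%) and 1435 lower (background 33.4%). The median log2 change of distal windows was -0.17, against 0.27 in the nearer windows. This comparison shares the betaTC3 libraries with the one before, so its values stand beside those and are not a second test. For Foxa2 at 16198 bp, Isl1 and Mnx1 the changes were -5.25, -4.45 and 4.76 against the knockdown and -5.03, -4.01 and 5.20 against the empty vector.

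After Smndc1 knockdown limma called no distal window. Smndc1 encodes a splicing factor with a Tudor domain related to SMN. By limma 0 of 3290 distal windows passed after Benjamini-Hochberg adjustment (0% of all 17641 windows), and 617 (18.8%) had an unadjusted p under 0.05, against 35.0% of all windows. At an unadjusted p the counts were 535 (background 12.4%) by edgeR with its own scaling and 554 (background 13.1%) by limma after median centring. DESeq2 called 1 distal window after adjustment of the 1062 it tested (background 0.0799%). The count rested on knockdown library 2: without it limma called 357 distal windows, 86 higher and 271 lower (background 35.6%), where the spread of the lone knockdown library is taken from the other groups.

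With the authors' scaling, the knockdown libraries were lower at strong windows and near the empty vector at weak ones. The median log2 change was -0.04 for distal windows of 10 to 30 scaled reads, -0.07 at 30 to 100, -0.26 at 100 to 300 and -0.40 at 300 to 1000. Nearer windows of the same levels had -0.02, -0.11, -0.30 and -0.43. Over all distal windows the median was -0.15 and over the nearer ones -0.39. With libraries centred on their medians these were 0.23 and -0.02. The direction of the distal median and the fall of the nearer windows therefore depend on the scaling. The gap between distal and nearer windows was smaller in the knockdown by 0.34 in log2, which 2 libraries against 2 cannot test below p = 0.333 (exact permutation test, p = 0.333). Summed scaled reads in windows were also lower in the knockdown, at 5410820 and 6709390 against 7921860 and 8189320, and their part in this was not tested.

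**Figure D5:**
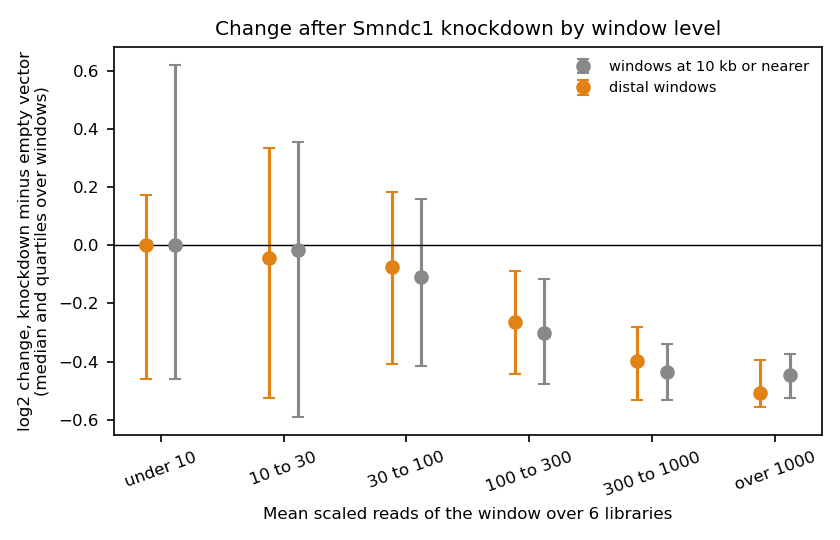
Median log2 change per window, knockdown minus empty vector, with quartiles over windows, by the mean scaled reads of the window over 6 libraries, for distal windows and windows at 10 kb or nearer. With the authors' scaling, the medians move from about 0 at the lowest levels to -0.40 (distal) and -0.43 (nearer) at 300 to 1000, and the classes run together.

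The distal windows closest to the threshold with at least 20 scaled reads over the alphaTC1 libraries included 5 lower in the knockdown, all in RefSeq gene bodies, as 58.1% of all distal windows are, and 5 higher, of which 2 were. In Cacna1c, an L-type calcium channel gene, the window assigned to Dcp1b (chr6:119078649-119079049) held 63.5 and 77.2 scaled reads in empty-vector cells and 17.9 and 15.4 after knockdown (-2.01 ± 0.29 in log2, adjusted p = 0.0691 by limma). In Cdh22 the window assigned to 1700025C18Rik held 39.7 and 55.0 and then 10.7 and 12.6 (-1.92 ± 0.27, adjusted p = 0.0691 by limma). At an internal start of Apbb1, an adaptor of the amyloid precursor protein, values were 122 and 131 and then 51.4 and 53.1 (-1.26 ± 0.18, adjusted p = 0.0705 by limma). The groups did not overlap at any of the 3, which were picked for their small p, and none passed the threshold.

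BetaTC3 held 27.2 and 40.9, 41.5 and 41.9, and 89.4 and 105 scaled reads at those 3 windows. Windows assigned to Gm23985, in the body of Dach2, and to Gm38118, at a start of the steroid dehydrogenase gene Hsd11b1, changed by -1.78 and -1.96 (adjusted p = 0.0752 and 0.0872 by limma). The 5 with the smallest p among higher values were assigned to Gm14135, Gm36954, Scgb2b19, Syt2 and Gm14625, with changes of 1.57, 1.24, 1.204, 1.10 and 1.08 and an adjusted p of 0.117 by limma for each. Syt2, a synaptotagmin gene, held 14.6 and 10.7 in empty-vector cells and 25.1 and 30.8 after knockdown. Without knockdown library 2, which leaves 1 knockdown library, the changes of these 10 windows ran from -2.02 to 1.47. The windows were picked for a small p in these same libraries, so this is no separate support.

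The 3 windows farthest from their assigned genes were all called between the lines, as were 80.5% of distal windows over 100 kb. At 481880 bp from Gm35736 values were 33.1 and 31.1 scaled reads in empty-vector cells, 46.6 and 46.1 after knockdown, and 2.396 and 0.952 in betaTC3 (adjusted p = 0.000146 by limma). At 440721 bp from Gm22444 they were 49.0 and 45.3, 69.3 and 58.7, and 224 and 256 (adjusted p = 9.16e-05). At 403949 bp from Gm23697 they were 9.27 and 9.77, 13.1 and 9.78, and 66.3 and 72.3 (adjusted p = 0.000201, limma). The nearest RefSeq starts lay 678627, 293000 and 23788 bp from these 3 windows in the same order.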

How the data were processed

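The 6 ChIP-seq libraries labelled H3K9me3 were deposited as a table of 17641 windows and as 1 peak list per library. The authors' processing notes name Bowtie2 2.4.1, Picard 2.19.2, MACS2 2.2.7.1 and the build mm10 (GRCm38), and give no roles here. The table holds the authors' normalised signal, whose values were whole multiples of 1 step per library within 0.001, and whether input was subtracted is not given. The deposited peak lists give a score, a ratio (fold over background) and −log10 p-values, and their peak names pair each library with its group's input. The fold and the peaks' positions were used, and the −log10 q-value in 1 alternative.

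Since the signal is scaled, limma 3.58.1 was run on log2(scaled reads + 1), with all 6 libraries in 1 model with a trend and Benjamini-Hochberg adjustment over all windows. The recovered reads were tested with edgeR and DESeq2 as alternatives. On simulated data for betaTC3 minus empty vector (17641 windows), limma recovered 59% of changes of 1 in log2 and 100% of changes of 2, with 9 false calls. Only 200 windows with a mean of at least 20 scaled reads were changed, at 1 dispersion for all windows. These figures therefore do not describe weaker windows, or data in which most windows differ. A group at 0 was set at a floor of 3 reads per library. Intervals and floors cover counting error only. A window overlapping a peak of a library by at least 1 bp counted as under it.

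Promoters and gene starts came from RefSeq GRCm38.p6, a build of the same assembly as the files, and chromosome 18 was not used there. The genes named were the 6 windows of highest mean, the 8 of largest change each way in betaTC3, 5 each way of smallest p after knockdown, the 3 farthest, islet gene windows (1 is not reported here), 3 on each side of the limit, the 5 most even, and examples of gene lists. The members and lists were chosen with earlier results of these data known.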

Additional observations from a re-analysis of the deposited data

How the results depend on the processing

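After knockdown limma called 0 distal windows, but 99 with a pseudocount of 0.1, 59 without the trend, 14 when only the compared groups were fitted, 29 by edgeR with the authors' scaling and 1 by DESeq2, and 0 to 357 when each library was left out, the 357 without knockdown library 2. The median log2 change of distal windows after knockdown, -0.15, turned to 0.23 with median centring, 0.17 with edgeR's TMM and 0.16 with DESeq2, and ran from -0.21 to -0.082 with each library left out. BetaTC3 against the empty vector gave 2462 calls and 647 among windows over 50 kb, where fewer windows were counted; the median of -0.32 became -0.14 with centring, -0.17 with TMM, -0.10 with DESeq2 and -0.53 over 50 kb. Against the knockdown 2460 calls became 636 over 50 kb, and the median of -0.17 became -0.36, -0.38, -0.31 and -0.39 in the same order. The level difference ran from -3.55 to -3.45 and the peak share difference from -24.7 to -22.3 points with each library left out, where the exact permutation test on 5 libraries cannot go below p = 0.0625. The peak share difference of -23.6 points became -50.8 when only peaks at or above the median q-value of their list were counted. The share of reads in betaTC3 minus alphaTC1 was -0.0457 points for windows over 50 kb and ran from -0.0944 to 0.25 with each library left out. For the Chga window at 33162 bp the change turned to 0.17 with centring, 0.069 with TMM, 0.17 with DESeq2, 0.37 without empty-vector library 2 and 0.18 without betaTC3 library 1. For these changes the cause was not tested.

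Over the named windows, 477 of 496 alternatives for betaTC3 against the empty vector left direction and call as they were, and 130 of 151 after knockdown, the other 21 being calls gained. A fit with the replicate number as a block called 0 distal windows after knockdown, 2406 and 2395 in the other comparisons; same-numbered deviations correlated at -0.0079, 0.085 and -0.176, and libraries were not paired. Taking the gene start from the table's location column, or leaving out windows near a RefSeq start, was chosen after seeing the data. The median distal window rests on 24 to 45 reads per library, which limits small changes.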

Other observations

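Distal windows clustered in places. Of 445 pairs of neighbouring distal windows within 20 kb of each other, both were called between betaTC3 and the empty vector in 250 pairs, and 201 of these (80.4%) changed in the same direction. Among pairs of nearer windows the share was 1005 of 1273 (78.9%), and among any 2 called distal windows it is 50.8%. The other 2494 distal windows (75.8%) had no distal neighbour that near. There were 5 runs of 5 windows. The run at Mageb1, a germline antigen gene on chromosome X, was higher in betaTC3 in 5 of 5 windows (median 41.3 scaled reads against 0.444 with the empty vector), and that at Gm47283 on chromosome Y in 5 of 5 (130.1 against 0). Runs at Tox3, Gm38042 and Bcor held windows of both kinds or uncalled ones. The X and Y runs lie in families with near-identical copies, so the placing of their reads is uncertain.

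The median log2 change between betaTC3 and the empty vector had the same sign in distal and nearer windows on 17 of 21 chromosomes and opposite signs on chromosomes 5, 10, 15 and 19. On chromosome 14, 56.6% of distal windows were higher and 17.2% lower in betaTC3, with a median log2 change of 0.92, against 0.66 in the nearer windows of that chromosome. On chromosome 11, 25.6% were higher and 52.1% lower, with medians of -0.89 and -0.70. On chromosome Y, 9 of 12 windows were distal, with medians of 0 to 1.32 scaled reads in the alphaTC1 libraries and 81.5 and 81.8 in betaTC3, and the median log2 change was 5.32, against 0.049 in its nearer windows. On chromosome 5 the medians were -0.58 and 0.058, and on chromosome 10 -0.29 and 0.044. How many copies of each chromosome the lines carry was not measured, and its part in the calls was not tested.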
